A study of Canis lupus familiaris with 34 samples.

Results

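The genes described here carry out DNA replication and the entry into S phase, and they were chosen by symbol, with no measured value in the rule. The choice was made with earlier results of these data known. The list held 42 genes in 9 roles: origin licensing, the replicative helicase, polymerases, the sliding clamp and its loader, single-strand DNA binding, flap processing and ligation, nucleotide supply, G1/S control, and UHRF1. Probe sets annotated to 1 gene symbol were found for 41 of them, and 39 passed the filter for dim signal, out of 7849 genes tested in all. The helicase subunit GINS3 reached at most 5.03 (log2) over its 4 probe sets, with 1 array above 5, and the transcription factor E2F1 reached 6.02 on its 1 probe set, with 2 arrays above 5. Both fell short of the required 3 arrays above log2 5. The ligase LIG1 had no probe set of its own symbol.

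Transcript levels were measured on Affymetrix Canine_2 arrays in osteosarcoma, a bone cancer, of the dog. The 34 arrays came from 31 dogs: 25 arrays of cell lines grown from primary tumours, 3 of lines grown from metastases, and 6 of snap-frozen primary tumour tissue. Dog 22 gave 2 line arrays, lines 19 and 22, which were averaged, so that 24 primary lines of 24 dogs were compared. The dogs of the primary lines were 10 Rottweilers, 7 Golden Retrievers and 7 of another or unstated breed, with 10 females, 13 males and 1 without a sex label. The 3 metastatic lines came from 2 Rottweilers and 1 Rhodesian Ridgeback, 1 female and 2 males. The tissues came from 3 Golden Retrievers and 3 dogs of another or unstated breed, 5 females and 1 male. Age at diagnosis was labelled 2 to 11.19 for primary lines, 2.39 to 6.31 for metastatic lines and 2.67 to 11.91 for tissues, with no unit. The treatment labels describe the dog's therapy, and no treatment of the cultures is labelled. Neither the passage number nor the share of tumour cells in the tissues is given in the sources used here.

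A cell copies its genome once per cycle. In G1 the origin recognition complex, CDC6 and CDT1 load the MCM2 to MCM7 ring onto DNA, and cyclin E with its kinase helps to start S phase, when CDC45 and the GINS complex turn the ring into a working helicase. Primase and polymerase alpha lay down primers, polymerases delta and epsilon extend them on the PCNA clamp that replication factor C loads, and FEN1 trims the flaps of the lagging strand, while ribonucleotide reductase, thymidylate synthase and thymidine kinase supply deoxynucleotides. Many of these genes are driven by E2F factors and are transcribed as cells leave G1, so their RNA is commonly read as a sign of how many cells in a sample are cycling.

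Levels and differences below are on the log2 scale of the GCRMA intensities except where a fold is named. A level depends on its probes, so levels are compared between samples and not between genes. Titles of the arrays began with 1 of 3 prefixes, called title prefix 1, 2 and 3 here. Of the primary line arrays 4 had title prefix 1, 19 had title prefix 2 and 2, lines 22 and 23, had title prefix 3. All 3 metastatic lines had title prefix 2 and all 6 tissues title prefix 3. Primary lines 5 and 9, labelled as different dogs, correlated at 0.976 over the 18590 kept probe sets, above the 0.911 of both line arrays of dog 22 and the median of 0.872 over pairs of line arrays. In lines 5 and 9, 28 of the 39 genes lay within 0.5 of each other, against 16 in the arrays of dog 22. With lines 5 and 9 averaged as 1 line, the counts of called genes among the 39 were the same in the 3 comparisons between groups and in the correlation with TOP2A, and the median differences kept their direction. Of these lines, line 9 enters the survival comparison and line 5 does not. Actin's 3′ probe set exceeded its 5′ probe set by 1.42 ± 0.96 (SD, n = 24) in primary lines and by 2.59 ± 1.15 (SD, n = 6) in tissues, a difference that grows as RNA degrades.

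**Figure D1:**
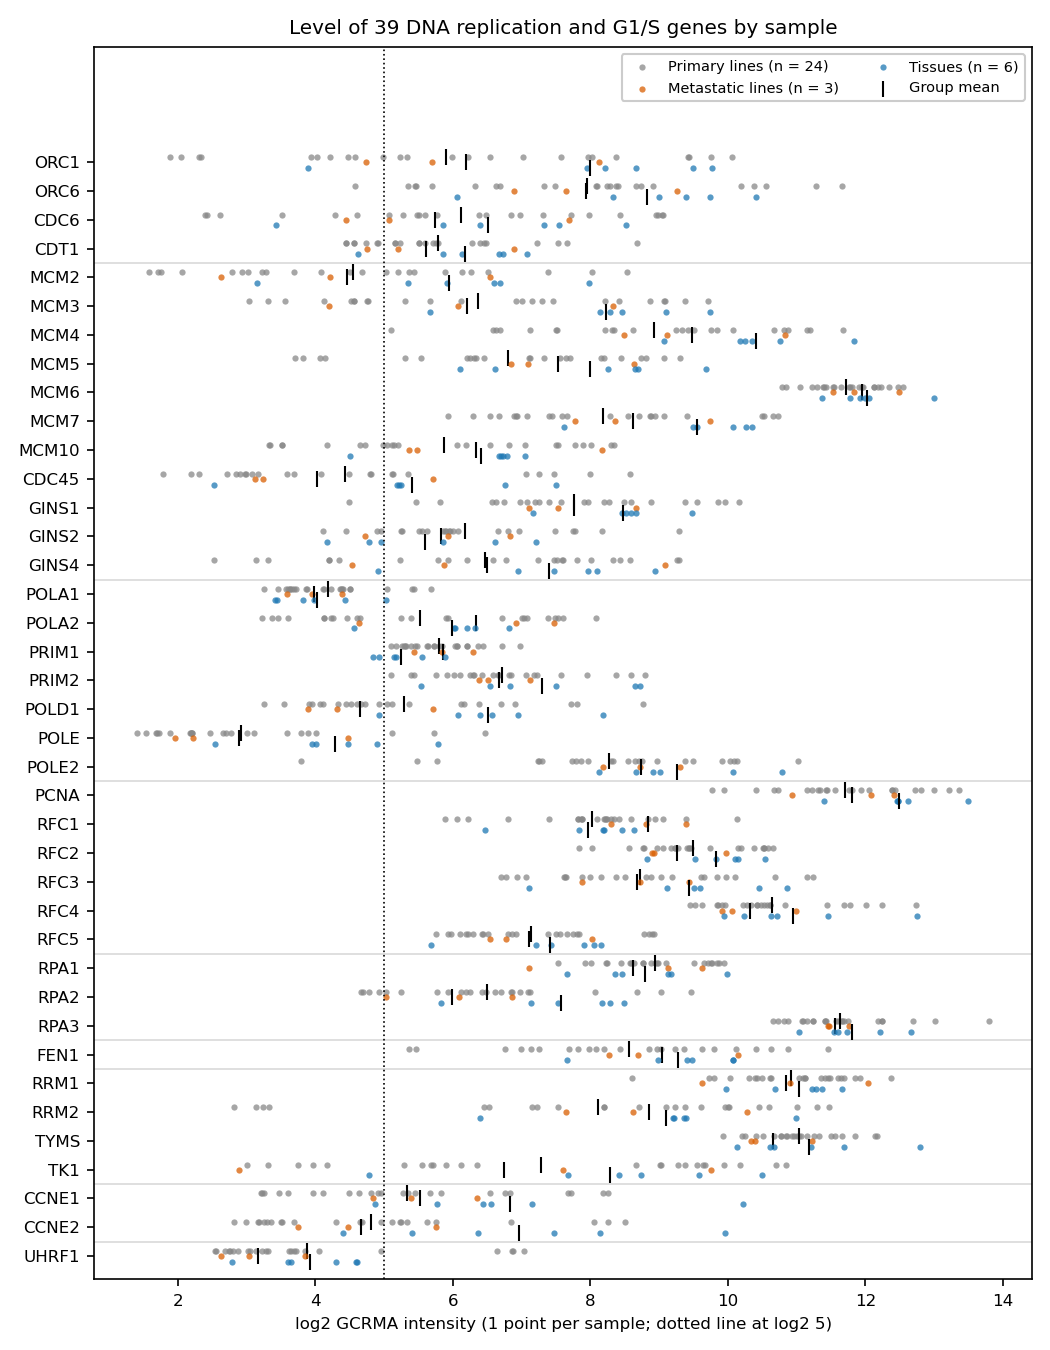
Level of each of the 39 genes by sample, with 1 point per sample on a log2 axis, black ticks at the group means and genes ordered by role. Primary lines (n = 24) spread widely for ORC1, RRM2 and TK1 and little for MCM6, PRIM1 and TYMS. For every gene plotted their range overlapped that of the tissues (n = 6), with no share over all genes computed.

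Primary lines were compared with tissues to ask how cultured tumour cells differ from the tumour. Of the 39 genes, 34 had a lower mean in primary lines, against 53.3% of all genes tested, and their median difference was -0.72, against -0.05 over all genes. Yet 1 of the 39 passed the test, a fold of at least 2 at an adjusted p under 0.05 in limma with Benjamini-Hochberg adjustment over all genes: the cyclin gene CCNE2. Over all genes 14.6% were called, 9.06% lower and 5.57% higher in primary lines, so the share of the 39 that was called is below the background. At an unadjusted p under 0.05 there were 7 of the 39, against 35.5% of all genes. The ranges of lines and tissues overlapped for all 39. No such share was computed over all genes, so this count does not set the 39 apart. In bulk RNA, fewer cycling cells and less RNA per cell cannot be told apart.

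Among the 9 roles, G1/S control had the median difference farthest from 0, at -1.82 over 2 genes. CCNE2, a cyclin that activates CDK2 at the start of S phase, had tissue levels of 8.14, 4.41, 7.47, 6.36, 5.40 and 9.95 in tissues 1 to 6, and primary lines ran from 2.82 through a median of 4.66 to 8.51. Of the 24 lines, 11 lay below the lowest tissue, tissue 2, and none above the highest, tissue 6. The mean was 4.81 ± 1.70 (SD, n = 24) in lines and 6.96 ± 2.00 (SD, n = 6) in tissues, a difference of -2.15 ± 0.76 (SE) or 4.44-fold (adjusted p = 0.0375). That call was lost without each of 4 of the 6 tissues: the adjusted p was 0.099 without tissue 1, 0.0818 without tissue 3, 0.0502 without tissue 4 and 0.167 without tissue 6, where the difference was -1.55. It was also lost with lines 19 and 22 entered separately (0.0668), with dog as a random block (0.0743) and with sex as a covariate (0.0889). CCNE1, the paralogous cyclin, differed by -1.49 ± 0.70 (SE, adjusted p = 0.124), with lines from 3.21 through a median of 5.11 to 8.26 and tissues from 4.87 through 6.50 to 10.21. Tissue 3 held the highest CCNE1 value of the tissues, and without it the CCNE1 difference was -0.82. The highest CCNE2 value was in tissue 6.

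The licensing genes, which mark origins and load the helicase, had a median difference of -0.64, with 0 of 4 called in limma and 0 at an unadjusted p under 0.05. ORC1, the subunit of the origin recognition complex that varies most over the cell cycle, ran from 1.89 through a median of 5.66 to 10.07 in primary lines and measured 8.22, 3.90, 9.78, 7.95, 8.66 and 9.50 in tissues 1 to 6. Tissue 2 stood apart from the other tissues, the lowest of which was 7.95, and 4 lines lay below it. The difference was -2.09 ± 1.07 (SE, adjusted p = 0.158). ORC6, CDC6 and CDT1 differed by -0.87, -0.40 and -0.40.

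Among the 11 helicase genes tested the median difference was -0.97, 10 were below 0 and 0 were called, with 3 at an unadjusted p under 0.05. MCM3 ran from 3.03 through 6.52 to 9.71 in lines and from 5.67 through 8.37 to 9.73 in tissues (difference -1.86 ± 0.88, SE, adjusted p = 0.125). For MCM4 the lines spanned 5.10 to 11.68 with a median of 9.29 and the tissues 9.07 to 11.84 with a median of 10.30 (-1.48 ± 0.71, SE, adjusted p = 0.129). In both genes 11 of the 24 lines lay below every tissue and none above. MCM2, MCM5 and MCM7 differed by -1.40 ± 0.85, -1.19 ± 0.71 and -1.37 ± 0.60 (SE), with adjusted p of 0.248, 0.233 and 0.0984. MCM6, a subunit of the same ring, differed by -0.29 ± 0.23 (SE), with lines from 10.79 to 12.55 and tissues from 11.37 to 12.99. Whether the subunits of the ring differ from each other in these differences was not tested. CDC45 and the GINS genes GINS1 and GINS4, which complete the helicase, differed by -0.97, -0.71 and -0.92, and GINS2 by 0.57 ± 0.54 (SE, adjusted p = 0.475). The second kept probe set of MCM7, a dimmer one, gave a difference of 0.17.

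The 7 polymerase and primase genes had a median of -0.57, with 0 called and 2 at an unadjusted p under 0.05. POLD1, the catalytic subunit of polymerase delta, ran from 3.25 through 4.82 to 8.77 in lines and from 4.93 through 6.49 to 8.18 in tissues (-1.22 ± 0.60, SE, adjusted p = 0.145), and 13 of 24 lines lay below every tissue. POLE, the catalytic subunit of polymerase epsilon, was dim, with lines from 1.41 through 2.56 to 6.47 and tissues from 2.55 through 4.25 to 5.79 (-1.35 ± 0.58, SE, adjusted p = 0.0866). Its partner POLE2 differed by -0.99 ± 0.66 (SE). PRIM1, the catalytic subunit of primase, had the opposite sign at 0.55 ± 0.22 (SE, unadjusted p = 0.0206, adjusted p = 0.0758): lines ran from 5.10 through 5.73 to 6.97 and tissues from 4.84 through 5.16 to 5.89, with 9 lines above every tissue and 0 below. The regulatory subunit PRIM2 differed by -0.57 ± 0.45 (SE).

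Clamp and clamp loader genes had a median of -0.32, with 0 of 6 called and 0 at an unadjusted p under 0.05. PCNA, the clamp, ran from 9.77 through 11.66 to 13.36 in lines and from 11.40 through 12.48 to 13.49 in tissues (-0.78 ± 0.41, SE, adjusted p = 0.171). The loader subunits RFC1 to RFC5 lay between -0.72 (RFC3) and 0.06 (RFC1). RPA2, the middle subunit of the single-strand binding complex, differed by -1.08 ± 0.55 (SE, adjusted p = 0.163), with lines from 4.66 through 6.46 to 9.46 and tissues from 5.83 through 7.85 to 8.50. RPA1 and RPA3 of that complex differed by 0.15 and -0.16, and the flap nuclease FEN1 by -0.72.

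Nucleotide supply had a median of -0.57 over 4 genes, with 0 called and 0 at an unadjusted p under 0.05. TK1, the salvage kinase for thymidine, ran from 3.01 through 7.50 to 10.84 in lines and from 4.78 through 8.58 to 10.50 in tissues (-1.01 ± 1.13, SE, adjusted p = 0.56). The TK1 difference was -1.71 without tissue 2 and -0.56 without tissue 6. RRM2, the regulated subunit of ribonucleotide reductase, differed by -0.99 ± 1.07 (SE), while its partner RRM1 and the thymidylate synthase gene TYMS differed by -0.11 ± 0.38 and -0.15 ± 0.30 (SE). UHRF1, which binds hemimethylated DNA behind the fork, differed by -0.05 ± 0.59 (SE). In all, 35 further kept probe sets existed for 25 of the genes, and 8 of them, in CDC6, FEN1, MCM7, RRM1, RFC1 and RFC5, gave the sign opposite to the one used.

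**Figure D2:**
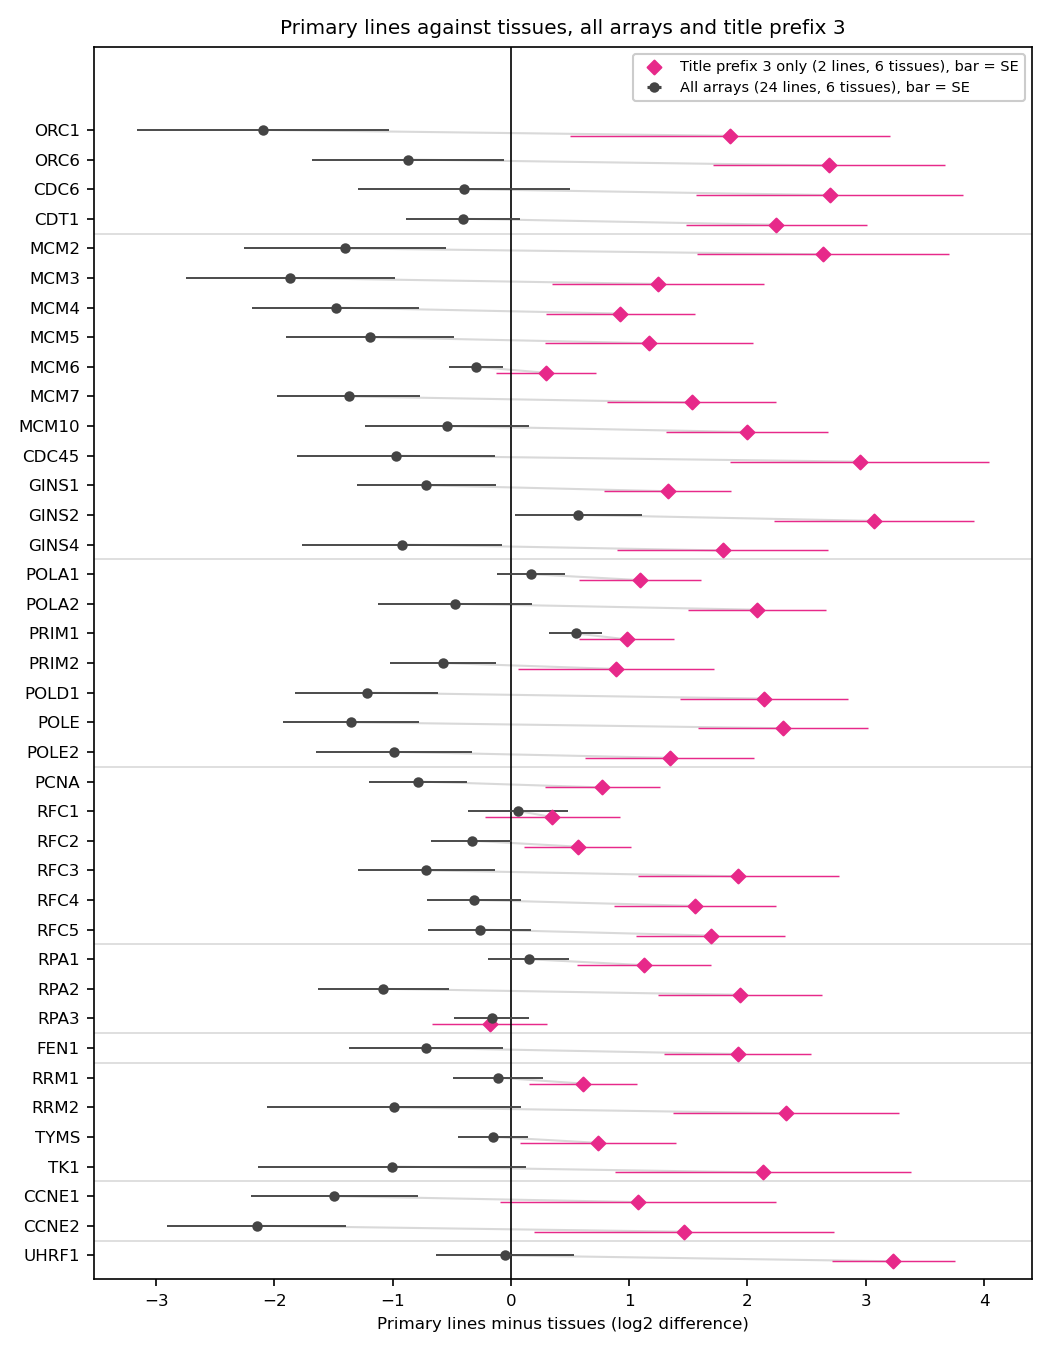
Difference of each gene between primary lines and tissues (log2, bars show the SE), over all arrays (24 lines, 6 tissues) and within title prefix 3 (2 lines, 6 tissues). Over all arrays 34 of 39 genes lay below 0, and within title prefix 3 38 of 39 lay above it.

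The direction of these differences turned within title prefix 3, where both kinds of sample share a prefix. There the mean of lines 22 and 23 exceeded the 6 tissues for 38 of 39 genes, against 54.6% of all genes, with a median of 1.56 against 0.10 over all genes. UHRF1 was the 1 gene of the 39 called in limma, at 3.23 ± 0.52 (SE, adjusted p = 0.0175), a share below the 3.2% of all genes. UHRF1 was dim in tissues and passed the filter through primary line arrays alone, with 5 arrays above log2 5 and 0 tissues among them. The filter therefore favoured this direction for UHRF1, and the call is no independent evidence of it. Its tissue values were 4.60, 2.78, 3.65, 3.60, 4.30 and 4.59, below lines 22 and 23 at 7.44 and 6.87, and 5 of the 24 primary lines exceeded them all. With title prefix as a covariate the differences were the same, 493 genes (6.28%) were called over all, and GINS2 (3.07, adjusted p = 0.0287) was called beside UHRF1 (adjusted p = 0.0293). Every gene given above with a difference of at least 1 in size over all arrays was then above 0, from 0.93 in MCM4 to 2.64 in MCM2, and CCNE2 stood at 1.46 (adjusted p = 0.544 within the prefix). Without the line arrays of title prefix 3, 4 genes were called lower in lines: CCNE2 at -2.31, MCM7 at -1.51, POLD1 at -1.41 and POLE at -1.58. Over all genes 16% were called in that fit, so 4 of 39 is below its background. The dog 22 line and line 23 were among the 3 highest of the 24 lines for 30 and 25 of the 39 genes.

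**Figure D3:**
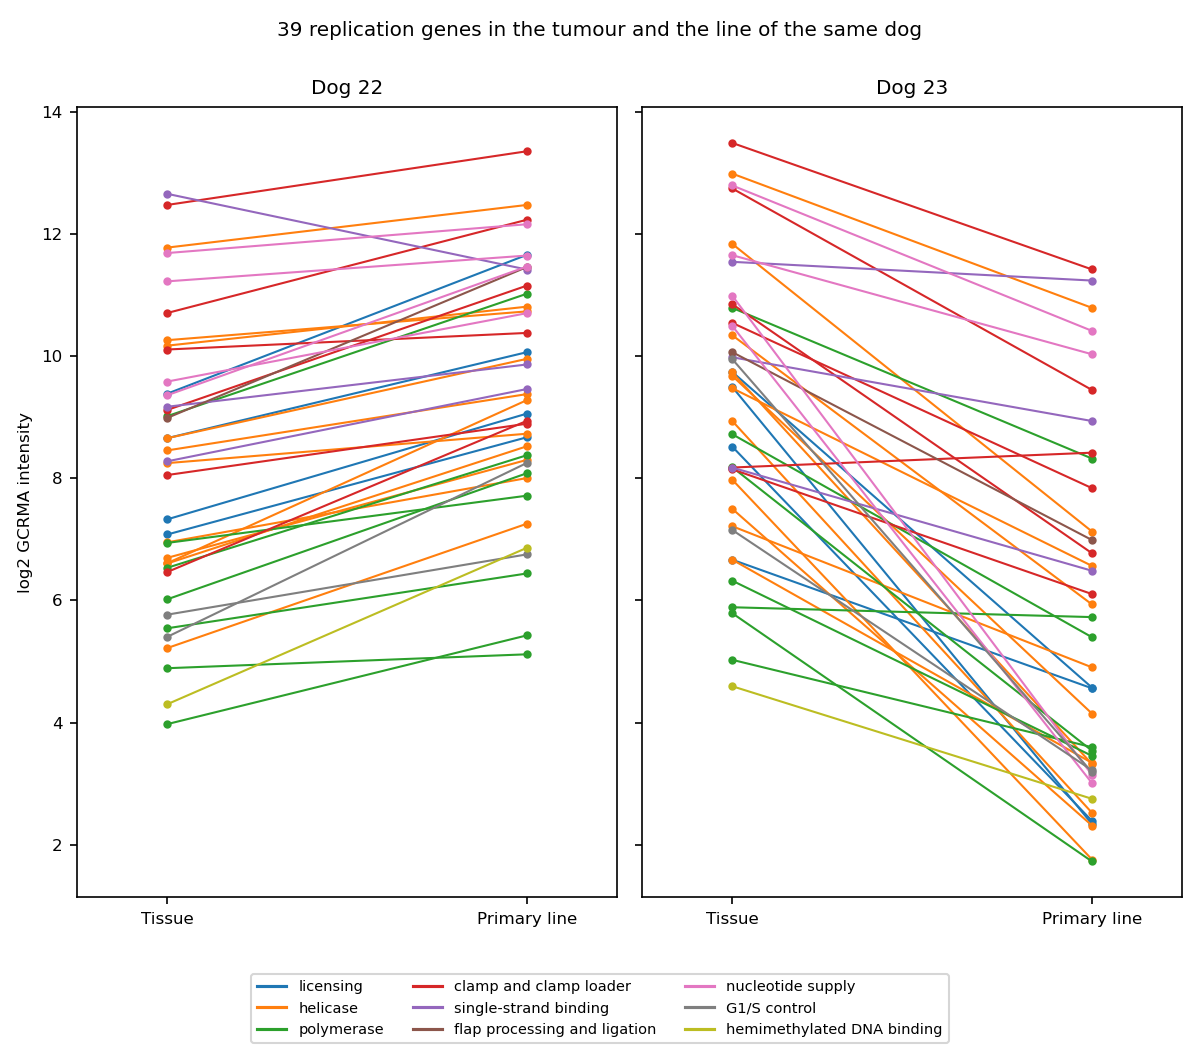
Level of each gene in the line and in the tissue of dog 22 and of dog 23 (log2, 1 value per sample, the line of dog 22 being the mean of 2 arrays). The line of dog 22 lay above its tissue for 38 of 39 genes and the line of dog 23 below its tissue for 38 of 39.

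A line and a tissue of the same animal were at hand in 2 dogs, and the pairs went opposite ways. The pairs are not alike in title prefix. In dog 23 the line had title prefix 2 and the tissue title prefix 3, so prefix and sample type cannot be told apart there. The line of dog 22 averages an array of each of these prefixes, and its tissue had title prefix 3. In dog 22 the line exceeded its tissue, tissue 5, for 38 of 39 genes, by a median of 1.30, while over all genes 54.9% were above 0 with a median of 0.12. In dog 23 the line, primary line 20, lay below its tissue, tissue 6, for 38 of 39, by a median of -3.30, with 43.2% of all genes above 0 and a median of -0.20. RRM2 stood at 11.47 in the line of dog 22 against 9.36 in its tissue, and at 3.14 in the line of dog 23 against 10.99 in its tissue. TK1 differed by 1.12 in dog 22 and by -7.49 in dog 23, and ORC1 by 1.41 and -7.16. The exceptions were RPA3 in dog 22 (-1.24) and RFC1 in dog 23 (0.24). By role, the median in dog 23 was -5.65 for licensing, -4.71 for the helicase, -4.94 for nucleotide supply, -2.87 for polymerases, -2.39 for the clamp and its loader and -1.04 for single-strand binding. In dog 22 these medians were 1.66, 1.05, 0.80, 1.45, 1.20 and 0.69. The 2 arrays of the dog 22 line differed from each other. Line 19 alone lay below tissue 5 for GINS4, MCM7, POLD1 and POLE, where the mean of lines 19 and 22 lay above it. POLE measured 3.55 in line 19 and 6.69 in line 22, against 4.89 in tissue 5. Each dog had 1 tissue array and dog 23 had 1 line array, and no test was made.

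**Figure D4:**
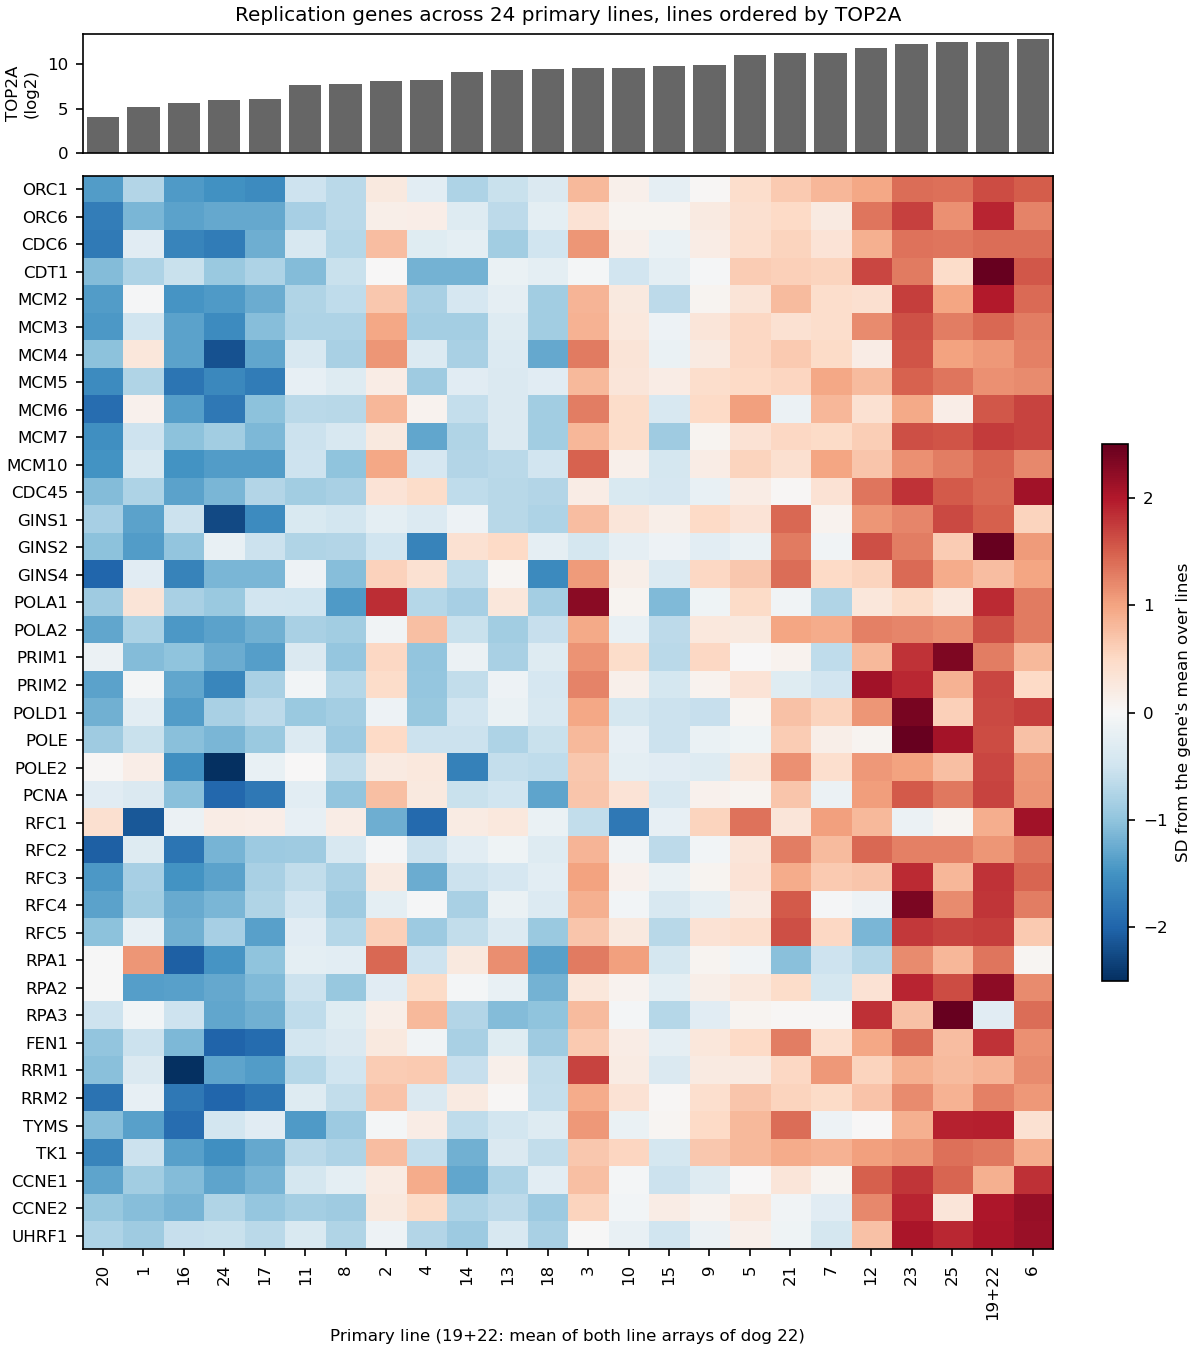
Deviation of each gene from its own mean over the 24 primary lines, divided by its SD over them (colour scale, in SDs), with lines ordered by their log2 level of the mitosis gene TOP2A (bars, starting at 0) and genes ordered by role. Lines 16, 24 and 20 are low and the dog 22 line and line 23 high for most genes, while RPA1, POLA1 and RFC1 follow the order of TOP2A least closely.

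Primary lines differed more among themselves in these genes than in genes at large. The SD over the 24 lines had a median of 1.46 over the 39 genes, against 0.671 over all genes, and ran from 0.488 in MCM6 to 2.68 in RRM2. Line 24 was among the 3 lowest lines for 28 of the 39 genes, line 16 for 27, line 20 for 20 and line 17 for 15. At the other end the dog 22 line was among the 3 highest for 30, line 23 for 25, line 6 for 21 and line 25 for 13. Tissues varied less than lines in 32 of the 39 genes, against 58.1% of all genes. The groups differ in size, and no test of the spread was made.

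Partners in one complex or one pathway differed in how far they ranged. RRM2 ran from 2.82 to 11.47 over the primary lines, an SD of 2.68, and its partner RRM1 from 8.60 to 12.37, an SD of 0.855. TK1 ran from 3.01 to 10.84 (SD 2.60), and TYMS, the de novo route to thymidylate, from 9.93 to 12.16 (SD 0.580). The remaining MCM ring subunits had SDs of 1.46 (MCM7) to 2.11 (MCM3), against 0.488 in MCM6. The other kept probe sets gave SDs of 0.631 for MCM6 and 2.81 for RRM2, but 1.51 and 1.14 for RRM1, 0.835 and 0.840 for TYMS, and 1.08 for MCM3, so the size of these contrasts depends on the probe set. Across the 39 genes the mean level and the SD correlated at r = -0.398, so brighter genes tended to vary less. Genes are not independent replicates, and the part of probe brightness in these SDs was not tested.

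Across the 24 primary lines the genes moved together. The 741 pairs among the 39 had a median Pearson r of 0.796, from -0.24 to 0.968, and RFC1 had the lowest median, at 0.236, with the others. No such median was computed for pairs of other genes. TOP2A, a topoisomerase that is made mainly in G2 and mitosis and is not on the list, served as an outside reference. It ran from 4.05 through a median of 9.49 to 12.77 over the lines with no gap wider than 1.5. Of the 39 genes, 36 correlated positively with TOP2A at an adjusted p under 0.05 (two-sided permutation test of 100000 draws, Benjamini-Hochberg over 7848 genes), both by Pearson's r and by Spearman's rho. By Pearson's r the share of all genes was 17.1%. The median r was 0.794, against 0.087 over all genes, and 33 of the 39 exceeded 0.7, against 5.5% of all genes.

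ORC6 had the highest value among the 39, at r = 0.934 and rho = 0.937 (permutation p = 1e-05 for both, the smallest these draws can give, adjusted p = 0.000388 and 0.000323). RRM2 reached r = 0.867 and rho = 0.84 (permutation p = 1e-05 for both). MCM6, with its narrow range, still reached r = 0.756 and rho = 0.744 (permutation p = 3e-05 and 0.00012, adjusted p = 0.000785 and 0.00201). RFC1, the large loader subunit, had r = 0.45 and rho = 0.461 (permutation p = 0.0278 and 0.0251, adjusted p = 0.0879 and 0.0802), and POLA1, the catalytic subunit of polymerase alpha, r = 0.435 and rho = 0.487 (permutation p = 0.0342 and 0.0171, adjusted p = 0.101 and 0.0615). RPA1, the large single-strand binding subunit, had r = 0.283 and rho = 0.239 (permutation p = 0.182 and 0.261, adjusted p = 0.322 and 0.414). When each gene was represented by its probe set of largest interquartile range, r was 0.664 for POLA1 (adjusted p = 0.00359) and 0.595 for RFC1 (adjusted p = 0.013), both then past the threshold. That choice also replaces the probe set of TOP2A, and POLA1, which had 1 kept probe set, changed through TOP2A alone. For RFC1, r was 0.153 with only the TOP2A probe set replaced and 0.438 with only that of RFC1 replaced. Values of r moved both ways under this choice, and RRM1 fell from 0.754 to 0.513.

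Without lines 20 and 1, the 2 lines farthest from the median of TOP2A, the median r of the 39 genes was 0.814 and the lowest 0.444. Within title prefix 2, over 19 lines, the median was 0.854, r was higher than over all lines for 32 of the 39, and 37 passed the threshold, POLA1 among them at 0.67 (adjusted p = 0.0129). ORC6 there had r = 0.95, RRM2 0.953, RFC1 0.404 and RPA1 0.415. The correlation describes shared variation between lines and does not separate a larger share of cycling cells from more RNA per cell.

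**Figure D5:**
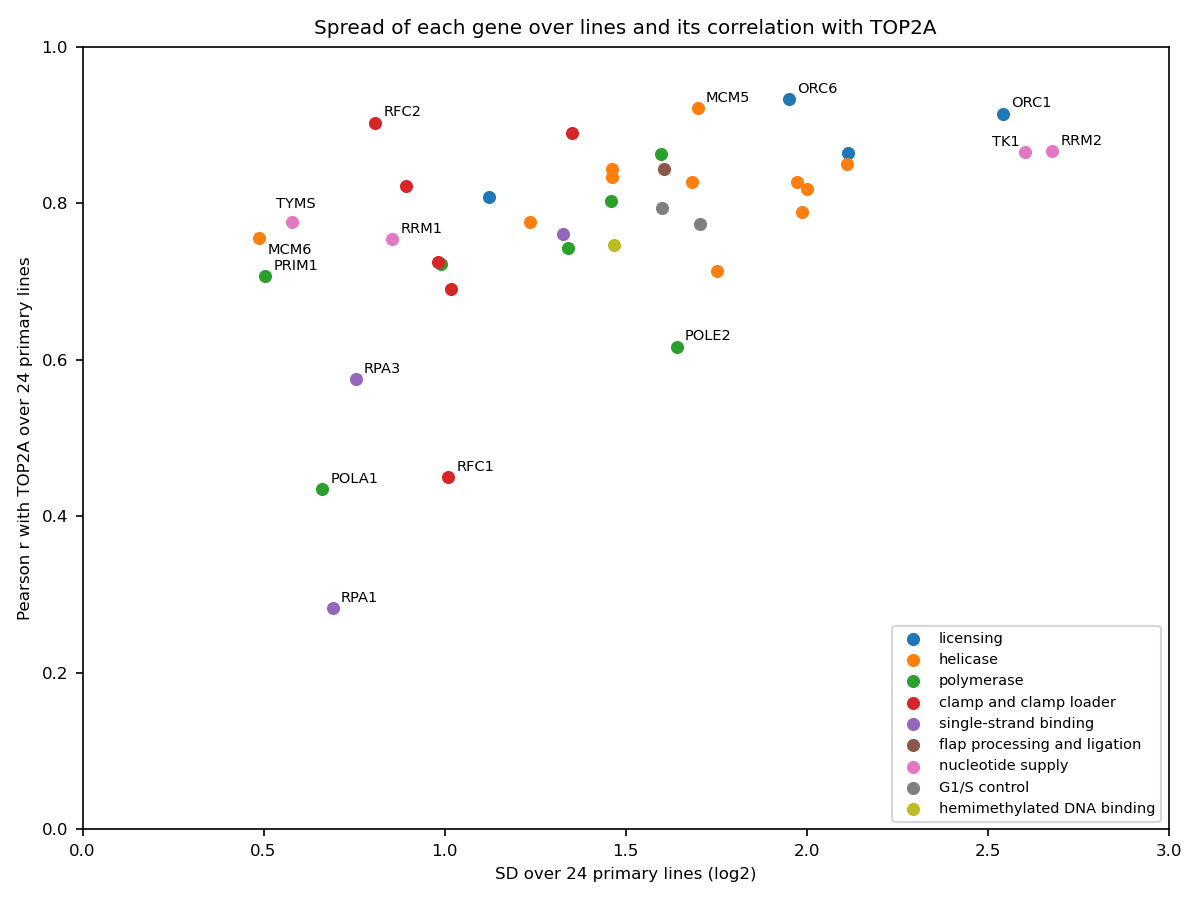
SD of each gene over the 24 primary lines (x axis, log2) against its Pearson r with TOP2A over the same lines (y axis), 1 point per gene, coloured by role. MCM6, PRIM1 and TYMS combine a narrow range with r above 0.7, while RPA1, POLA1 and RFC1 lie below 0.5.

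Metastatic lines were compared with primary lines to ask whether replication genes differ by the origin of the line. In limma 0 of the 39 were called and 0 had an unadjusted p under 0.05, against 0.0127% and 6.8% of all genes. The median difference was -0.04, and it had no stable sign: it was -0.58 without metastatic line 3 and 0.29 without metastatic line 1, and above 0 also without metastatic line 2, primary line 3, 6, 23 or 25, or the dog 22 line. The differences ran from -0.70 (UHRF1) to 0.82 (POLA2), and the smallest adjusted p among the 39 was 0.813, for RFC1 (0.81 ± 0.57, SE). RRM2 measured 7.65, 8.61 and 10.28 in metastatic lines 1 to 3, inside the range of the primary lines, a difference of 0.74 ± 1.44 (SE). Of the 117 values of metastatic lines, 115 lay within the range of the primary lines, a count with no share over all genes computed beside it. The exceptions were RPA1 (7.11) and TK1 (2.89) in metastatic line 1. TK1 stood at 7.59 and 9.75 in the other two. Metastatic line 3 was the highest of the 3 for 37 of the 39 genes. Standard errors of these differences ran from 0.30 in PRIM1 to 1.52 in TK1.

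Against tissues, which are the same 6 samples as above, metastatic lines had 35 of 39 genes below 0, against 50.3% of all genes, with a median of -0.62, which was -1.02 without metastatic line 3 and -0.38 without metastatic line 1. In limma 0 of the 39 were called and 0 had an unadjusted p under 0.05, against 7.53% and 22.2% of all genes, and the smallest adjusted p was 0.236. With title prefix as a covariate the median was 1.79, but no prefix holds both metastatic lines and tissues, so prefix and group cannot be told apart for this pair without the primary lines.

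Survival was compared over the 11 primary lines with a survival label and the plain treatment label SOC, which is not spelled out, and ran from 4.04 to 64.01 with no unit. The slope of the level per doubling of the survival label was below 0 for 38 of the 39 genes, against 51.6% of all genes, with a median of -0.34. No gene was called in limma, of the 39 or of all 7849 (0%), and 2 of the 39 (5.13%) had an unadjusted p under 0.05, MCM10 and PRIM1, close to the 4.88% of all genes. On leaving out 1 line that median ran from -0.55, without line 18, to -0.24. RRM2 had the steepest slope among the 39, at -1.03 ± 0.50 (SE, adjusted p = 0.905), and -0.51 without line 17. Its level was 10.60 in the line with the shortest survival label and 6.46 in the line with the longest, but the line labelled 16 held 11.47 and the line labelled 4.96 held 6.53. Because the genes move together over the lines, their 39 signs are not independent of each other.

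Related genes outside the 42 were compared between primary lines and tissues from lists of their own. Over all genes 14.6% were called in that comparison, 35.5% had an unadjusted p under 0.05 in limma and 53.3% were below 0. In each of the lists of this paragraph the share called was below that background. Of 35 further replication genes 29 were tested, with a median of -0.46 and 2 called, both lower: CHTF18 (-1.55 ± 0.44, SE, adjusted p = 0.0109) and CHTF8 (-1.63 ± 0.58, SE, adjusted p = 0.0405), parts of an alternative clamp loader. CHTF18 and CHTF8 were dim, with means of 3.53 and 3.96 in primary lines and 5.08 and 5.59 in tissues. Of 12 further nucleotide supply genes 8 were tested and 0 were called, with 0 at an unadjusted p under 0.05. Of 20 further G1/S genes 11 were tested and 1 was called, the E2F family member E2F5, higher by 1.34 ± 0.43 (SE, adjusted p = 0.0244). Of 25 mitosis genes 19 were tested, with 18 below 0, a median of -1.34, 0 called in limma and 2 at an unadjusted p under 0.05. Within title prefix 3 the mitosis median was 1.69 and that of the further replication genes 1.02, turned as for the 39. There CHTF18 stood at 1.40 and CHTF8 at 1.29, while E2F5 kept its sign at 1.16 (adjusted p = 0.47).

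Markers of other cells differed between the sample types. All 13 monocyte and macrophage markers tested, of 16 listed, were called lower in primary lines, against 9.06% of all genes. Their summed linear intensity ran from 67.0 to 740.1 in primary lines, from 72.2 to 84.8 in metastatic lines and from 4680 to 23280 in tissues. None of the 13 had a median above log2 5 in primary lines, and all 13 did in tissues. The filter keeps a marker that is high in tissues alone and drops one that is dim in both. It therefore favoured calls in this direction for the marker lists given here, and the counts called are no independent evidence of it. Endothelial markers, 9 tested of 12, were called lower for 8, with sums from 96.6 to 35660 in primary lines and 1942 to 31550 in tissues. None of 11 T and B lymphocyte markers passed the filter, with 10 on the array. Of the osteoblast and bone matrix markers 10 of 12 were tested, all 10 had a lower mean in primary lines, 5 were called lower, and 4 had a median above log2 5 there against 8 in tissues. The macrophage sums were 17040, 12660, 10740, 5243, 23280 and 4680 in tissues 1 to 6. Of the 39 replication genes, 36 were lowest in tissue 2, which lies in the middle of that order, and 1 was lowest in tissue 5, which has the highest. Tissue 6, with the lowest sum, was the highest tissue for 28 genes, and tissue 4, with the next lowest, for 2. Actin's 3′ minus 5′ difference was 1.27 in tissue 6, the smallest of the tissues, and 2.72 in tissue 2, with a largest value of 4.61. The part of these other cells, or of RNA quality, in the tissue values was not tested.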

How the data were processed

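The deposited intensity values, 1 per probe set and array, were computed with GCRMA by the authors, as the submitters' processing notes list it. Neither version nor settings are given in the sources used here. They were on a linear scale, and log2 was taken. Of 43035 probe sets 175 controls were left out, 29254 had 1 symbol in the platform annotation, 439 several and 13167 none. A probe set was kept where log2 exceeded 5 on at least 3 arrays, and the one with the highest mean stood for its gene. Of the 29254, 27680 matched the UU_Cfam_GSD_1.0 gene table, and 0 symbols changed. The 3 groups shared 1 fit in limma 3.58.1 (lmFit, eBayes, R 4.3.3) with Benjamini-Hochberg adjustment over 7849 genes. Survival was fitted separately. Correlations used two-sided permutation tests in Python 3.11.15. Both procedures were tested on simulated data. The genes, lists and tests were chosen with earlier results of these data known. Genes with a difference of at least 1, or called, are given by sample or range. GINS2, PRIM1, PCNA, RRM2 and the genes of the correlation and spread paragraphs were singled out after their values were seen. Arrays have no read depth, and their number limits precision. Each line came from a separate dog per the labels. Labels pair a line with a tissue in dogs 22 and 23, whose deviations from the group means correlated at 0.157 and -0.175. Alternatives varied the filter, probe set, normalization, weights, covariates, block and samples. Averaging lines 5 and 9, and leaving out the lines of title prefix 3, were chosen after seeing the data.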

Additional observations from a re-analysis of the deposited data

Results flagged for a closer look

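For each of the 39 genes the 6 tissues were searched for 1 sample far from the others, and 5 genes had one. Tissue 2 lay far below the other tissues for ORC1 (3.90, the next at 7.95), MCM7 (7.62, the next at 9.49), MCM10 (4.51, the next at 6.67) and POLA2 (4.56, the next at 6.02). Tissue 5 lay far below them for RFC1 (6.47, the next at 7.83). Chance flags about 1 in 20 such groups, and the genes move together, so these are not 5 separate events. Without tissue 2 the genes MCM7 (-1.76, adjusted p = 0.0444) and POLE (-1.70, adjusted p = 0.0426) were called lower in primary lines beside CCNE2 (-2.66, adjusted p = 0.0154), all in limma. In that fit 15% of all genes were called, a larger share than the 3 of 39.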

How the results depend on the processing

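Between primary lines and tissues the 1 called gene became 0 with lines 19 and 22 entered separately, 0 with dog as a random replicate block (estimated correlation 0.129) and 0 with sex as a covariate, 7 with array weights (18.8% of all genes called), 2 with title prefix as a covariate and 4 without the line arrays of title prefix 3. The fits with dog as a block and with title prefix as a covariate also entered lines 19 and 22 separately. Leaving out 1 sample gave 0 to 3. The median of the 39 genes was 1.56 with title prefix as a covariate and within title prefix 3, where 493 and 251 genes were called over all, against 1148. Both settings turned the sign of CCNE1 (1.07), CCNE2 (1.46), MCM2 (2.64), MCM3 (1.24), MCM4 (0.93), MCM5 (1.17), MCM7 (1.53), ORC1 (1.85), POLD1 (2.14), POLE (2.30), RPA2 (1.94) and TK1 (2.13), and the probe set of largest interquartile range turned MCM7 (0.17). Between metastatic and primary lines the 1 gene called over all became 0 with that probe set and 0 with a filter at log2 7, 4 with array weights, and 0 to 24 on leaving out 1 sample, 24 without metastatic line 2. Between metastatic lines and tissues 205 genes were called with title prefix as a covariate, against 591, with a median of 1.79 over the 39, and 339 to 611 on leaving out 1 sample, 339 without metastatic line 1. For survival 0 to 1 genes were called on leaving out 1 line. In the last 3 comparisons the count among the 39 was 0 under every alternative run. The causes were not tested.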
